A study of Mus musculus with 6 samples.

Results

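Melanocyte and pigment genes were followed in dorsal skin of UVB-irradiated Cbl-b-/- and WT mice. The set holds 10 genes (Tyr, Tyrp1, Dct, Pmel, Mlana, Slc45a2, Oca2, Mitf, Mc1r and Gpr143) of the 19938 genes that have a row of their own on the array, and each was found by its present symbol. Where a gene had several rows, as Mitf did, the row with the highest mean was taken. The Cbl-b-/- group consisted of 3 mice that lack the E3 ubiquitin ligase Cbl-b, spelled clb-b in the sample labels, and the WT group of 3 BL6 mice. All 6 mice were shaved on the back the day before, received a single UVB dose of 80 mJ/cm2, and gave skin 24 h later. The labels state that the animals were matched for sex and age, but the age itself is not given in the sources used here. RNA of each mouse was hybridized to 1 array (Affymetrix Mouse Gene 1.0 ST), and values are log2 intensities normalized by the authors (RMA). Skin taken before irradiation was not analysed here.

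Melanin is made in melanosomes, organelles of the melanocyte, from tyrosine. Tyrosinase starts the pathway, the related enzymes Tyrp1 and Dct act on its later intermediates, Pmel forms the fibrils on which melanin is laid down, and transporters such as Oca2 and Slc45a2 set the milieu of the organelle. Mitf is the basic helix-loop-helix factor that controls many of these genes. In haired back skin of black mice, pigment cells sit mainly in hair follicles, and their synthesis of pigment runs with the growth phase of the hair cycle (anagen) and ceases at rest. The arrays address how transcripts of the skin differ between the genotypes after UVB, and melanin is among the skin's absorbers of UV.

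WT replicate 3 stood apart from the other arrays. It lay at least 1 log2 unit above every other array in 189 of 35556 rows (0.532%), against 6 to 37 rows for each of the other arrays. Pearson correlations between arrays, across rows, ran from 0.980 to 0.993. Cblb itself read 8.61, 8.69 and 8.61 in the Cbl-b-/- arrays and 9.90, 9.66 and 9.72 in the WT arrays, so that WT replicate 3 had the Cblb level of its group. Keratin and collagen genes of skin were high on all arrays, among them Krt14 (10.81 to 11.80) and Col1a1 (10.93 to 11.76). In a list of 16 skin tissue genes, however, WT replicate 3 was highest in 0 and lowest in 7, among them Krt14. Cbl-b-/- replicate 2 was lowest in 7 as well. Values are therefore given for each array, and the pigment genes are compared between the genotypes with and without WT replicate 3. For single genes outside the set, the estimate is from all 6 arrays unless stated otherwise. The bulk samples cannot tell fewer melanocytes from less RNA per melanocyte.

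The genes for the 3 melanin-forming enzymes were the most uneven of the set, and WT replicate 3 alone was high in all of them. Tyr, tyrosinase itself, read 3.75, 4.24 and 3.82 in the Cbl-b-/- arrays and 3.81, 3.82 and 7.00 in the WT arrays. WT replicate 3 exceeded the next highest array, Cbl-b-/- replicate 2, by 2.76 log2 units (6.76-fold), while the other 5 arrays lay within 0.49 units of each other. Tyrp1, which oxidizes an indole intermediate of black eumelanin in mice, read 5.72, 6.79 and 6.68 in Cbl-b-/- skin and 6.14, 6.63 and 10.16 in WT skin. Its gap between WT replicate 3 and the next array was 3.38 log2 units (10.4-fold), the largest among the 10 genes, and the other 5 arrays spread over 1.07 units. Dct, dopachrome tautomerase, read 6.38, 7.05 and 7.13 in Cbl-b-/- skin and 6.28, 6.90 and 9.93 in WT skin, a gap of 2.80 log2 units (6.96-fold). For Tyrp1 and Dct, replicate 1 of each genotype was lowest, and Cbl-b-/- replicates 2 and 3 and WT replicate 2 formed a middle level. The genotypes overlapped in all 3 genes.

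The promoters of these enzymes are shown because their genes were high together in 1 array, and that of Mc1r because its gene differed far less between arrays. They are the 250 bases before the RefSeq gene start (GRCm38.p6, 5′ to 3′). Capitals mark the 6-base core CATGTG, letters that Mitf is known to bind, on either strand (it reads CACATG on the opposite strand). In Tyr the 3 bases before the core and the 2 after it are in capitals as well, and so are all matches to this run of 11 bases, AGTCATGTGCT, the element known as the M-box.
Tyr (chr7:87493513-87493762, minus strand): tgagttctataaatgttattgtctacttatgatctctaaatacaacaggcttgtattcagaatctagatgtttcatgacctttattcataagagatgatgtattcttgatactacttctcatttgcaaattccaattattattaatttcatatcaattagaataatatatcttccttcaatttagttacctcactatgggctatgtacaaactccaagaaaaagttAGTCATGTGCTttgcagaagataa
Tyrp1 (chr4:80833963-80834212, plus strand): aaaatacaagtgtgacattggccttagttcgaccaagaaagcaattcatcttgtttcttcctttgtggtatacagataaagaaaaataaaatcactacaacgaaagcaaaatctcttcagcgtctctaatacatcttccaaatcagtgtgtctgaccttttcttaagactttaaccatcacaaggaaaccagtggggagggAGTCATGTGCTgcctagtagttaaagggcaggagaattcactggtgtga
Dct (chr14:118052247-118052496, minus strand): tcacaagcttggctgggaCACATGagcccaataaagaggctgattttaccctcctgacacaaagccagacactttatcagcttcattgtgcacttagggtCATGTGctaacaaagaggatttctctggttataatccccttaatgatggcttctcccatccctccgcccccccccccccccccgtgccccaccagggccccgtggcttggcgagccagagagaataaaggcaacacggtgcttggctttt
Mc1r (chr8:123406832-123407081, plus strand): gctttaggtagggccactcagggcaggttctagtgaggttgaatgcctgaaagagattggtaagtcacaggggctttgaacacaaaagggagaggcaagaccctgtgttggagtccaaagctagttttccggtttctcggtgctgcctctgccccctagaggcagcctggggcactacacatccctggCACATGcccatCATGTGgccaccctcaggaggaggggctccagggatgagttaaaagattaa
The M-box, taken as spelled in Tyr, recurred letter for letter in Tyrp1, and 7 of 32851 promoter windows of all genes held it on either strand, these 2 included (0.0213%, windows of 250 bases before to 50 after the start). In Tyr its core began 21 bases before the start and in Tyrp1 46 bases before it. Dct had no full match to the M-box but 2 cores, at 150 bases on the shown strand and 232 bases on the opposite one. Around the core at 150 bases, only the first letter of the M-box as spelled in Tyr differed (G in place of A). Mc1r had 2 cores as well, at 51 and 62 bases. The core alone was common, with 14.2% of all windows holding it. Of the 6 pigment genes with a window in the table, 5 held a core (Tyr, Tyrp1, Dct, Oca2 and Mc1r), and the 3 windows of Mitf held none. A match of letters describes the window and shows no binding.

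Structural and transport genes of the melanosome had the same high array with smaller gaps. Pmel, the fibril protein, read 6.08, 6.48 and 6.39 in Cbl-b-/- skin and 6.04, 6.21 and 8.12 in WT skin, with WT replicate 3 higher than the next array by 1.64 log2 units (3.11-fold). Mlana, the melanosomal membrane protein known as MART-1 in humans, read 6.58, 6.72 and 7.28 in Cbl-b-/- skin and 6.64, 6.62 and 8.22 in WT skin. In this gene Cbl-b-/- replicate 3 came second, and the gap to WT replicate 3 was 0.94 log2 units. Slc45a2, a transporter of the melanosome, read 5.14, 5.54 and 5.10 in Cbl-b-/- skin and 5.16, 5.14 and 7.15 in WT skin, and Cbl-b-/- replicate 2 was second by a margin of 1.61 log2 units. Oca2, the pink-eyed dilution protein, read 4.64, 4.89 and 4.56 in Cbl-b-/- skin and 4.40, 4.68 and 6.29 in WT skin. Its WT replicate 3 lay 1.41 log2 units above Cbl-b-/- replicate 2. In each of these 4 genes the values of WT replicates 1 and 2 fell inside or below the range of the Cbl-b-/- arrays.

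The receptors Gpr143 and Mc1r and the factor Mitf differed least between arrays. Gpr143, the melanosomal receptor of ocular albinism, read 4.01, 4.31 and 3.96 in Cbl-b-/- skin and 3.91, 3.82 and 4.98 in WT skin. WT replicate 3 was 0.67 log2 units above the next array, and WT replicates 1 and 2 both lay under all Cbl-b-/- arrays. Mc1r, the melanocortin receptor that directs melanocytes to black eumelanin, read 5.98, 6.23 and 6.33 in Cbl-b-/- skin and 5.86, 6.28 and 6.68 in WT skin, with a gap of 0.35 units. Mitf read 8.27, 7.60 and 8.46 in Cbl-b-/- skin and 8.28, 8.05 and 8.66 in WT skin, so that WT replicate 3 led by 0.20 units and Cbl-b-/- replicate 2, which was second in Tyr, Tyrp1, Pmel, Slc45a2, Oca2 and Gpr143, was lowest. The other row of Mitf stayed between 2.22 and 2.57 on all arrays. Mitf is transcribed in many cell types from several promoters, and which of its forms the row used measures was not determined.
The 10 genes can be ordered by the lead of WT replicate 3 over the next array. Tyrp1 came first, then Dct and Tyr, Pmel and Slc45a2, Oca2, Mlana, Gpr143, Mc1r and Mitf. WT replicate 3 was the highest array in 10 of 10 genes, against 16.8% of all rows, and led by at least 1 log2 unit in 6 of 10 (0.532% of all rows). The table carries no detection calls. As a gauge, 1023 rows of olfactory receptor genes, which serve smell and are not known as skin transcripts, had a median of 3.64 and a 95th percentile of 5.44. Tyr and Oca2 stayed below 5.44 on the 5 arrays other than WT replicate 3 and exceeded it on that array, so their presence in those 5 samples was not shown and their gaps are lower bounds in size. Gpr143 stayed below 5.44 on all 6 arrays, WT replicate 3 included (4.98), and its presence was not shown in any sample. Slc45a2 exceeded 5.44 only in WT replicate 3 (7.15) and, by little, in Cbl-b-/- replicate 2 (5.54).

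**Figure D1:**
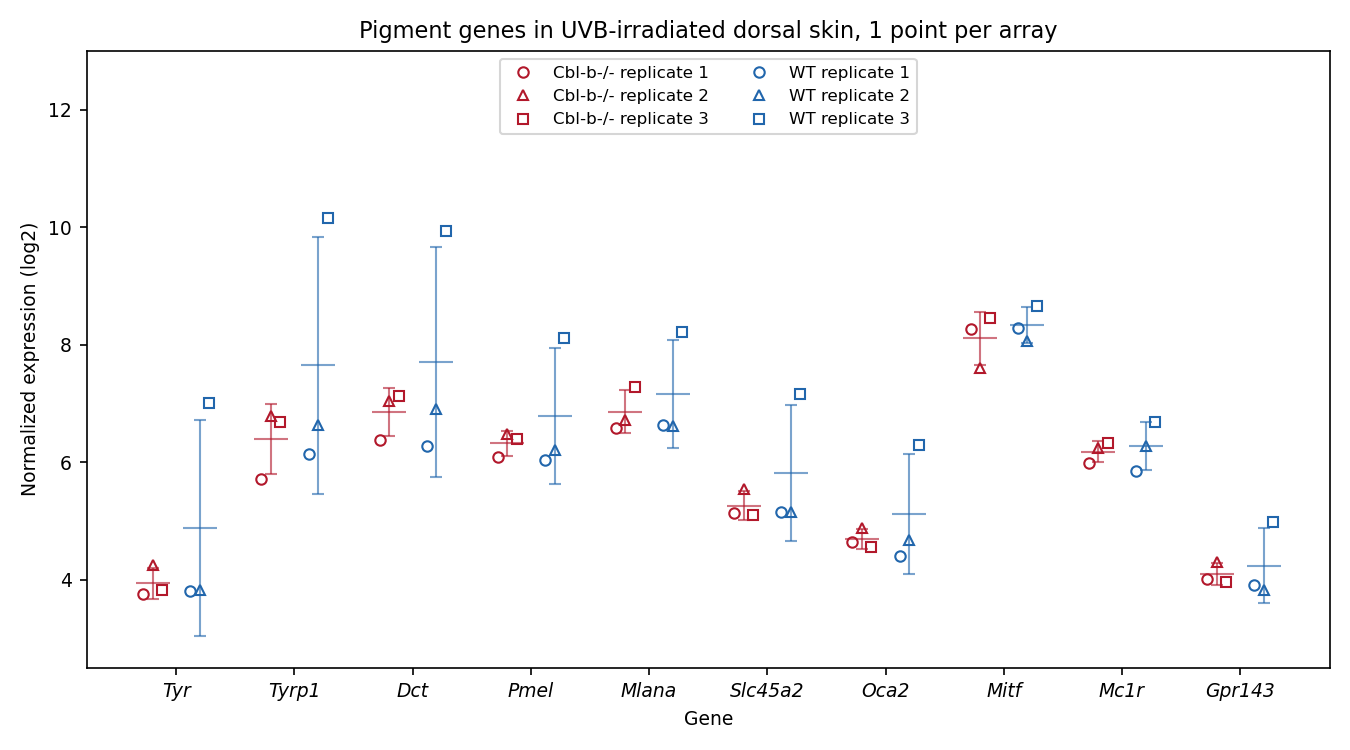
Normalized expression (log2, vertical axis) of the 10 pigment genes (horizontal axis) on 3 Cbl-b-/- arrays (left of each pair) and 3 WT arrays (right). Symbols are single arrays, and bars with whiskers are mean and SD. The open square of WT replicate 3 is the highest point of every gene, at 10.16 for Tyrp1 and 7.00 for Tyr.

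Between the genotypes, 0 of the 10 pigment genes met the study's thresholds (an unadjusted p under 0.05 and at least a 1.5-fold difference), against 1.22% of all rows, and 0 passed at an adjusted p under 0.05 in limma (0.00281% of all rows). The limma p without adjustment was under 0.05 for 0 of the 10, where it was for 6.55% of all rows. The per-row test that the methods name gave 0 as well, at p alone (6.98% of all rows) and at both thresholds (0.751% of all rows). All 10 log2 fold changes (Cbl-b-/- minus WT) were below 0, as were 44.2% over all rows, with a median of −0.45 against 0.020 over all rows. Tyrp1 had the most negative estimate, with Cbl-b-/- arrays at 6.40 ± 0.59 and WT arrays at 7.65 ± 2.19 (mean ± SD, n = 3 each). In limma the log2 difference was −1.25 with a standard error (SE) of 1.03 (adjusted p = 0.823), and the 95% interval ran from −3.72 to 1.22. Tyr stood at −0.94 with an SE of 0.84 and Dct at −0.85 with an SE of 0.90 (limma adjusted p = 0.836 and 0.863). Among the others, log2 fold changes ran from −0.56 for Slc45a2 to −0.093 for Mc1r. None of these differences exceeded the spread between the WT arrays, whose SD was 1.84 for Tyr and 1.95 for Dct.
Without WT replicate 3, the estimates turned positive in 9 of 10 genes (55.2% of all rows) and the median was 0.14 against 0.021 over all rows. Tyr then stood at 0.13 (95% interval −0.29 to 0.54), Tyrp1 at 0.0076 (−0.89 to 0.91), Dct at 0.26 (−0.47 to 0.99) and Pmel at 0.19 (−0.17 to 0.56). Mitf remained negative at −0.055 (−0.72 to 0.61). Gpr143 had the smallest unadjusted p in this fit (0.14, adjusted p = 0.683 from limma), with a log2 fold change of 0.23. In this comparison 0 of 10 met the study's thresholds, against 1.44% of all rows. The intervals of Pmel and Mc1r then lay within a 1.5-fold difference on either side, whereas those of Tyrp1, Dct, Mlana and Mitf reached past it. The interval of Slc45a2 also lay within it, but its remaining values except Cbl-b-/- replicate 2 (5.54) were below 5.44. It therefore sets no firm limit. The intervals of Tyr, Oca2 and Gpr143 were as narrow, but all their remaining values lay below 5.44. These intervals set no limit on a difference between the genotypes. With all 6 arrays, the intervals of Pmel (−1.75 to 0.81) and Mc1r (−0.61 to 0.42) reached past a 1.5-fold difference. WT replicate 3 was left out after its high values in these genes were seen. The narrower intervals without it therefore set no limit for Pmel and Mc1r either.

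**Figure D2:**
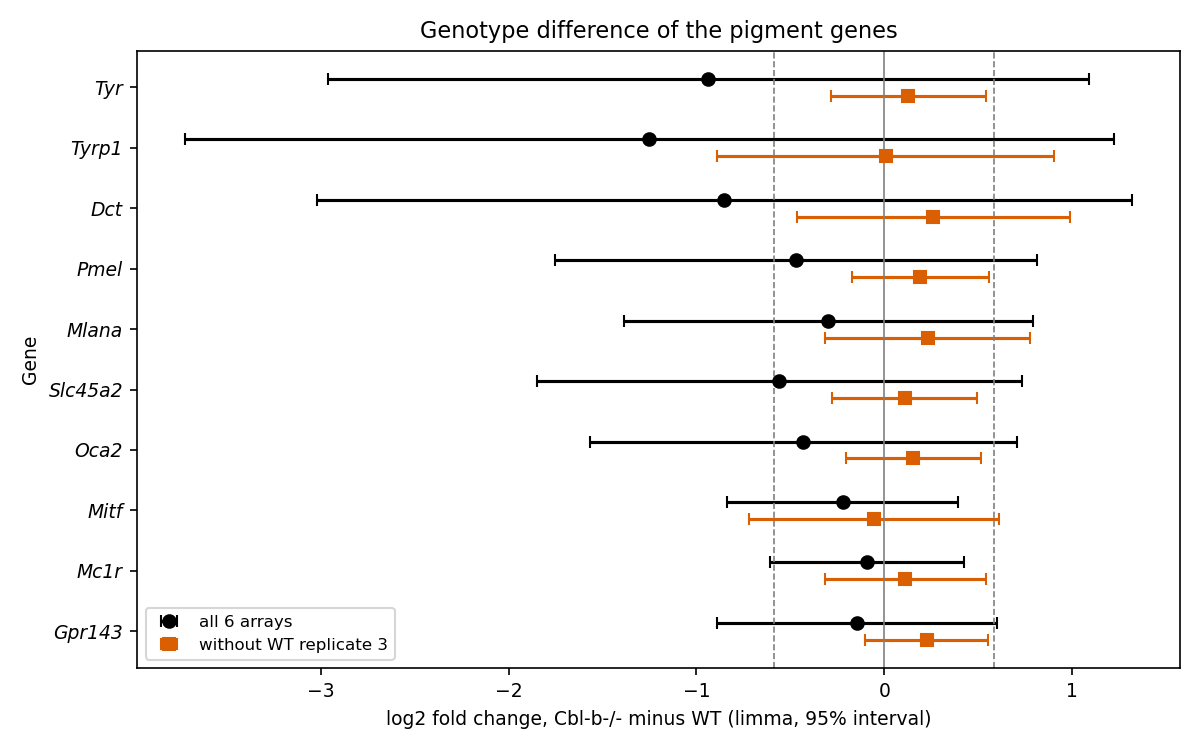
Log2 fold change (horizontal axis, Cbl-b-/- minus WT, limma) of the 10 pigment genes (vertical axis) with 95% intervals, from all 6 arrays (circles) and without WT replicate 3 (squares). Dashed lines mark a 1.5-fold difference on either side of 0. With all arrays every estimate lies left of 0, and without WT replicate 3 only that of Mitf does.

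Hair genes moved with the high array. A list of 32 genes of the hair shaft, the inner root sheath and the follicle matrix, of which 29 were measured, had a median level of 8.92 in WT replicate 3, against 5.66, 6.41 and 6.98 in the Cbl-b-/- arrays and 5.47 and 5.63 in WT replicates 1 and 2. WT replicate 3 was highest in 27 of 29 genes and led by at least 1 log2 unit in 22. Krt25, a keratin of the inner root sheath, read 5.02, 7.88 and 7.71 in Cbl-b-/- skin and 5.05, 5.09 and 10.94 in WT skin. Krt31, a keratin of the hair shaft, read 5.64, 6.33 and 6.67 against 5.19, 5.22 and 8.61, and Msx2, a homeobox factor of the hair matrix, 6.22, 6.45 and 6.71 against 6.03, 5.92 and 9.02. These genes thus placed Cbl-b-/- replicates 2 and 3 between WT replicate 3 and the remaining 3 arrays. The median of the 10 pigment genes was also next highest in Cbl-b-/- replicates 2 and 3 (6.36 in both), followed by WT replicate 2 (6.24), WT replicate 1 (5.95) and Cbl-b-/- replicate 1 (5.85). Single pigment genes differed in how they ordered Cbl-b-/- replicate 3 and WT replicate 2, which stood at 6.98 and 5.63 in the hair median. Cbl-b-/- replicate 3 was higher for Mlana (7.28 against 6.62), Dct (7.13 against 6.90) and Pmel (6.39 against 6.21). Tyrp1 (6.68 against 6.63) and Slc45a2 (5.10 against 5.14) were nearly level, and Tyr was at 3.82 in both, under the olfactory gauge. Mitf (8.46 against 8.05), Mc1r (6.33 against 6.28) and Gpr143 (3.96 against 3.82) were higher, and Oca2 was lower (4.56 against 4.68). Gpr143 and Oca2 were under the gauge here. Taken as differences from each gene's median over the arrays, the pigment median was 0.16 in Cbl-b-/- replicate 2 and 0.048 in replicate 3. The hair genes had 0.20 and 0.48.
In the genotype comparison, 0 of 29 hair genes met the study's thresholds (1.22% of all rows). The p of limma without adjustment was under 0.05 for 0 of them (6.55% of all rows), as was that of the methods' test (6.98%). Estimates were below 0 in 26 of 29 (44.2% of all rows), with a median of −0.33. Krt28, an inner root sheath keratin, stood lowest at −0.76 (SE 1.15) and Msx2 next at −0.53 (SE 0.81), and the highest were Gata3, a factor of the inner root sheath lineage, at 0.17 and Ovol1, an epithelial zinc finger factor, at 0.14. Without WT replicate 3 the median turned to 0.53, 28 of 29 estimates were above 0 (55.2% of all rows), 9 passed an unadjusted p under 0.05 as higher (4.44% of all rows) and 2 met the study's thresholds (1.44% of all rows), the keratins Krt31 and Krt73 with log2 differences of 1.01 and 1.08. The remaining WT values of these 2 keratins lay below 5.44, at 5.19 and 5.22 for Krt31 and 5.15 and 5.29 for Krt73. Their presence in WT replicates 1 and 2 was thus not shown. The pigment genes kept a median of 0.14 in the fit without WT replicate 3. Genes of the bulge and resting follicle had no such high array, with WT replicate 3 highest in 3 of 10 and lowest in 2. Cbl-b-/- replicate 2 was the lowest array in 7 of the 10. Medians were 8.52, 7.87 and 8.79 in Cbl-b-/- skin and 8.13, 8.21 and 8.62 in WT skin. Fgf18, a growth factor of resting follicles, was lowest in WT replicate 3 (7.10) and next lowest in Cbl-b-/- replicate 2 (7.23), against 8.10 to 8.36 on the other arrays. Lgr5 (9.18), Sox9 (9.59) and Lhx2 (9.14) of the same list were instead highest in WT replicate 3. The part of the hair cycle in the pigment values was not tested. Krt14, Col1a1, Krt25, Krt31, Krt73, Fgf18, Lgr5, Sox9 and Lhx2 here were chosen after their values were seen. So were Trpm1, Rab27a, Myo5a, Mlph, Sox10, Pax3, Edn3, Corin, Ednrb, Krt71, Krt86, Tchh and Lef1 further on and in the color map.

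**Figure D3:**
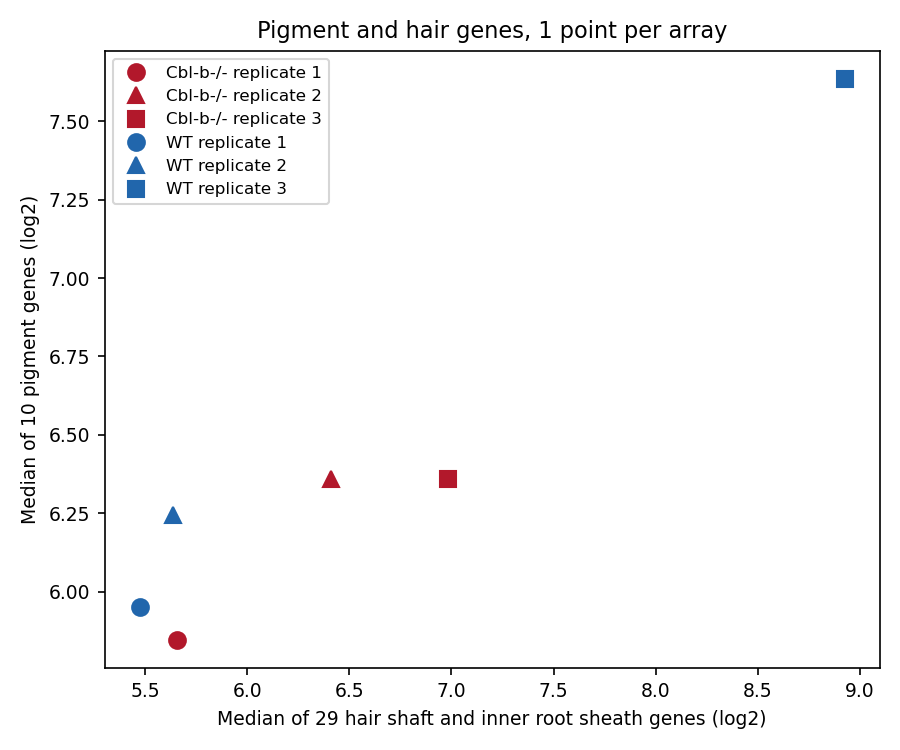
Median level of the 10 pigment genes (log2, vertical axis) against the median level of 29 hair shaft and inner root sheath genes (log2, horizontal axis), 1 point per array. WT replicate 3 stands alone at 8.92 for hair genes. Cbl-b-/- replicates 2 and 3 lie at 6.41 and 6.98 on that axis, with pigment medians of 6.36 in both.

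In a wider list of 26 genes of melanosome biogenesis and transport, 0 met the study's thresholds (1.22% of all rows). At an unadjusted p under 0.05 in limma, 2 were higher (3.68% of all rows) and 1 was lower (2.87% of all rows), and the methods' test passed 6 (6.98% of all rows). Their median log2 fold change was 0.022 with all arrays and 0.073 without WT replicate 3. Without overlap between the genotypes, 3 of the 26 lay higher (8.66% of all rows) and 4 lay lower (4.89% of all rows). Genes of this list fell into a small part that shared the high array and a large part that did not. Slc24a5, a cation exchanger of the melanosome, read 4.60, 5.07 and 4.81 in Cbl-b-/- skin and 4.56, 4.65 and 7.30 in WT skin, with a log2 fold change of −0.68 (SE 0.71). Without WT replicate 3 its log2 fold change was 0.22. Slc24a4, a related exchanger known for its link to pigmentation in humans, read 5.27, 5.34 and 5.24 against 4.97, 5.22 and 6.84. Trpm1, a channel of melanocytes, read 4.96, 5.10 and 5.07 against 4.72, 4.98 and 6.22. These 3 were the genes of the list in which WT replicate 3 led by at least 1 log2 unit. On all other arrays they stayed below 5.44, the olfactory gauge, so their presence there was not shown.
By contrast, the transport genes Rab27a, Myo5a and Mlph, whose products link melanosomes to actin in melanocytes and serve other cells as well, stayed within 0.26, 0.41 and 0.50 log2 units over all 6 arrays. Rab38, a small GTPase that carries enzymes to the melanosome, ran the other way. It read 8.34, 8.28 and 8.55 in Cbl-b-/- skin and 8.07, 8.12 and 7.84 in WT skin, without overlap (8.66% of all rows lay higher without overlap), with WT replicate 3 lowest. The log2 difference was 0.38 with an SE of 0.12 (limma adjusted p = 0.733) and 0.29 without that array. Bloc1s3, a subunit of a complex for lysosome-related organelles, had 8.44, 8.48 and 8.47 against 8.25, 8.14 and 8.27, a log2 difference of 0.24 with an SE of 0.075 (limma adjusted p = 0.733). Cd63, a tetraspanin of late endosomes that helps to sort Pmel, ran from 9.87 to 10.16 in Cbl-b-/- and from 10.33 to 10.39 in WT skin, a log2 difference of −0.35 with an SE of 0.095 (limma adjusted p = 0.685), also without overlap (4.89% of all rows lay lower without overlap). All 3 stayed under a 1.5-fold difference and failed the correction over all rows.

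Among lineage and signaling genes of melanocytes, WT replicate 3 was highest in 7 of 19 measured (16.8% of all rows) and led by at least 1 log2 unit in 0 (0.532% of all rows). Sox10, a factor of neural crest derivatives that acts on Mitf, read 6.76, 6.94 and 6.79 in Cbl-b-/- skin and 6.65, 6.77 and 6.66 in WT skin. Pax3, a paired-box factor of the same lineage, read 5.38, 5.40 and 5.74 against 5.21, 5.31 and 5.62. Kit, the receptor for stem cell factor on melanocytes and mast cells, read 6.42, 6.71 and 6.83 against 6.77, 6.61 and 7.38. Its log2 fold change was −0.27 (SE 0.22) with all arrays and −0.039 without WT replicate 3. WT replicate 3 was highest for Kit, by 0.55 log2 units, and for neither Sox10 nor Pax3. Pax3 exceeded the olfactory gauge of 5.44 only in Cbl-b-/- replicate 3 and WT replicate 3, so its presence on the other arrays was not shown. Sox10 is also a gene of Schwann cells and Kit of mast cells. In 7 measured Schwann cell genes WT replicate 3 was the highest array in 0 and the lowest in 5, and in 10 mast cell genes it was the highest in 0 and the lowest in 5, with medians of 6.65, 6.80 and 7.06 in Cbl-b-/- and 6.59, 6.15 and 6.17 in WT skin. In 10 macrophage genes it was the highest in 0. The part of these cells in Sox10, Kit and Mitf was not tested.
Of 19 measured regulators, 0 met the study's thresholds (1.22% of all rows). At an unadjusted p under 0.05 in limma 1 was higher (3.68% of all rows) and 1 was lower (2.87%), and the same 2, Foxd3 and Edn1, passed in the methods' test (6.98%). These counts lay near the shares over all rows, and both genes failed the correction. Edn1, the endothelin that keratinocytes release and that acts on melanocytes, read 6.45, 6.46 and 6.83 in Cbl-b-/- skin and 7.03, 7.03 and 7.07 in WT skin. It was the 1 regulator of 19 that lay lower without overlap (4.89% of all rows). Its log2 difference was −0.46 with an SE of 0.12 (limma adjusted p = 0.685), and −0.45 without WT replicate 3. Foxd3, a neural crest factor, differed by 0.23 with an SE of 0.082 (limma adjusted p = 0.749), at 5.85, 5.82 and 5.70 in Cbl-b-/- against 5.57, 5.49 and 5.61 in WT skin. Hgf, a growth factor for melanocytes among other cells, had the largest positive estimate at 0.38 (SE 0.17), with Cbl-b-/- replicate 2 at 6.09 and the other arrays between 5.26 and 5.52. All its WT values lay below the olfactory gauge of 5.44, so its presence in WT skin was not shown. Edn3, a ligand of the melanocyte receptor Ednrb, and Corin, a protease of the dermal papilla, were highest in WT replicate 3, at 6.36 and 6.42, against 5.48 to 5.79 and 5.42 to 5.74 on the other arrays. Ednrb itself stayed between 8.93 and 9.45, with WT replicate 1 highest. Over the 19 regulators the median estimate was 0.046 on the log2 scale.

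**Figure D4:**
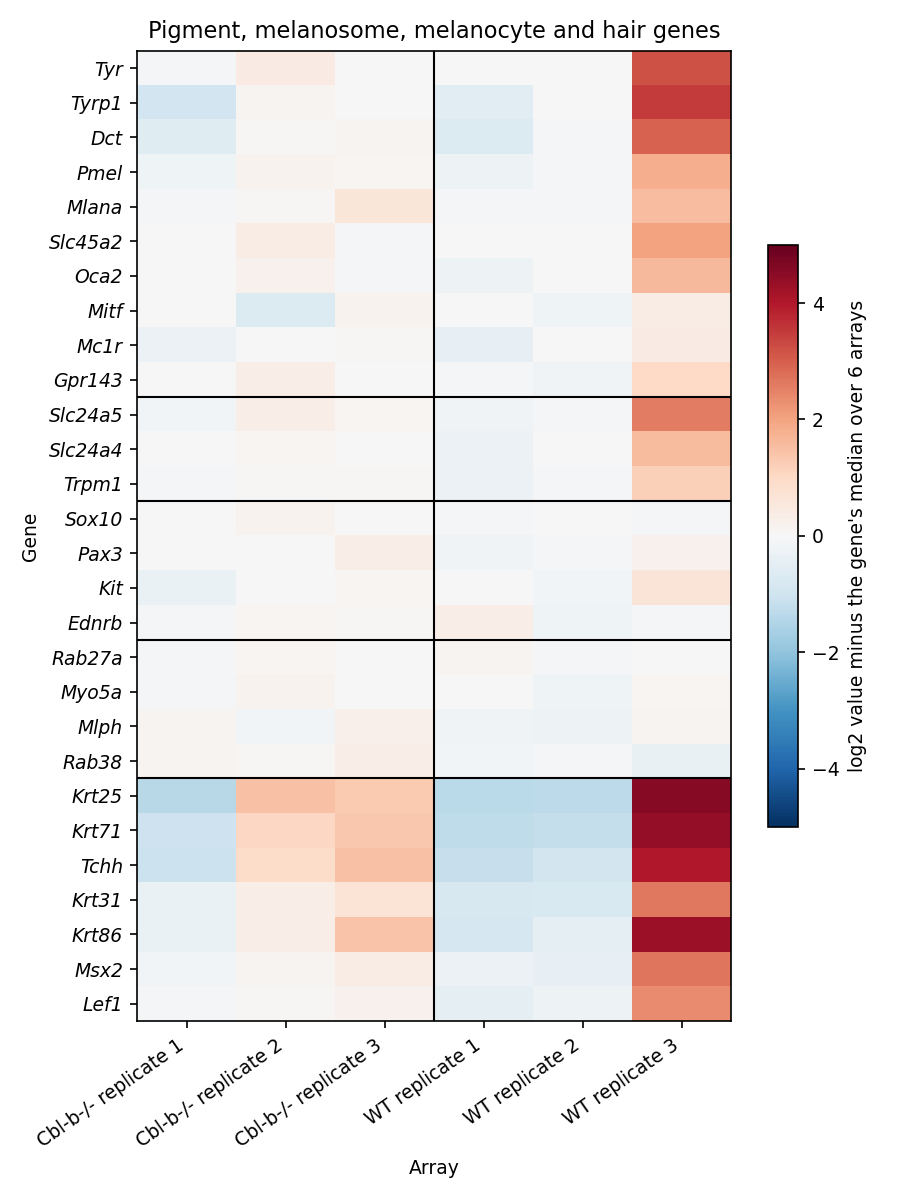
Log2 value minus the gene's median over the 6 arrays (color scale) for 28 genes (vertical axis) on 3 Cbl-b-/- and 3 WT arrays (horizontal axis). Black lines part, from the top, the 10 pigment genes, 3 further genes with the same high array, 4 lineage genes and receptors, 4 transport genes and 7 hair genes. WT replicate 3 is red for Tyr, Tyrp1 and Dct, darkest for Krt25, Krt71, Krt86 and Tchh, and pale for Sox10 and Ednrb, and the intermediate red of Cbl-b-/- replicates 2 and 3 is seen in Krt25, Krt71 and Tchh.

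Likeness to the pigment genes was measured over the 6 arrays as Pearson's r to the mean of their centred values, among 636 rows with 1 symbol and an SD of at least 0.5. The 10 closest rows had r from 0.9905 to 0.9965. They were Lyg2, Vsig8, Slc24a5, Syna, Bambi, Krt32, Krtap5-3, Sptssb, Fras1 and Fbp1. Lyg2, a lysozyme of the goose type, read 4.48, 5.62 and 5.15 in Cbl-b-/- and 4.62, 4.80 and 9.59 in WT skin. Krt32, a hair keratin, read 5.06, 5.23 and 5.21 against 4.79, 5.05 and 6.67, and Krtap5-3, a keratin-associated protein of hair, 8.15, 9.00 and 8.48 against 8.02, 8.12 and 11.94. Krt32 and Krtap5-3 were not on the list of hair genes, and 0 of the 29 measured genes of that list were among the 10. WT replicate 3 dominates each of these coefficients, and the 6 points share its high value, so they are a description only. Within the set, each gene's r to the other 9 ran from 0.49 for Mitf and 0.85 for Mc1r to 0.998 for Pmel.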

How the data were processed

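Whole-skin RNA from the back, 24 h after UVB (80 mJ/cm2), was measured on 6 arrays of 3 Cbl-b-/- and 3 WT animals, 1 per mouse, which the methods call biological replicates. The deposited values are log2 intensities that the authors made by RMA (correction of background, quantile normalization and a median polish per transcript cluster) in Partek Genomics Suite, version 6.5 in the submitters' processing notes. These steps make arrays comparable but compress low levels, and no detection call accompanies the values. Of 35556 rows, 21789 carry 1 gene symbol, 1621 several and 12146 none in the platform annotation. Genotypes were compared with limma 3.58.1 (R 4.3.3) on the values as deposited, over all rows, with Benjamini-Hochberg adjustment, as Cbl-b-/- minus WT. The study's thresholds were an unadjusted p under 0.05 and at least 1.5-fold. The fit was tested on simulated data. Alternatives were the methods' per-row test, cyclic loess between arrays, an intensity trend, leaving out dim rows, the replicate number as a block, and leaving out each array. The number of arrays limits the precision.
The members and the gene lists were chosen with earlier results of these data known. Of 144 listed genes, 137 have a row of their own symbol, and none was found by a former name. Apart from the 10 members, genes named from a list were those past an unadjusted p of 0.05 in limma and the 2 highest and 2 lowest estimates of the list, with the exceptions named, and those most like the members' profile. Promoter sequences are from RefSeq (GRCm38.p6), in which 6 of 10 members matched.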

Additional observations from a re-analysis of the deposited data

How the results depend on the processing

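The count of pigment genes that met the study's thresholds stayed at 0 under every alternative run. The methods' per-row test, the intensity trend, the fit without dim rows (5 members measured) and the replicate block leave each difference of means unchanged. Their estimates therefore equal those given above and are no check of direction. Under cyclic loess 10 of 10 members kept their direction. The other row of Mitf, fitted on the deposited values only, stood at −0.15 (SE 0.11). Its values of 2.22 to 2.57 lay below the olfactory median of 3.64, so its direction is no check. With single arrays left out, log2 fold changes ran from −1.47 to 0.13 for Tyr, −2.00 to 0.0076 for Tyrp1, −1.56 to 0.26 for Dct, −0.85 to 0.19 for Pmel, −0.57 to 0.23 for Mlana, −0.89 to 0.11 for Slc45a2, −0.79 to 0.15 for Oca2, −0.39 to 0.034 for Mitf, −0.30 to 0.11 for Mc1r and −0.35 to 0.23 for Gpr143. The upper end came without WT replicate 3 for each gene except Mitf, where it came without Cbl-b-/- replicate 2. Mc1r also turned without Cbl-b-/- replicate 1. Medians ran from −0.82 to 0.14 for the pigment genes, −0.0044 to 0.073 for melanosome genes, 0.025 to 0.088 for regulators and −0.97 to 0.53 for hair genes. Over all rows, 434 met the study's thresholds, 267 with the methods' per-row test, 176 without dim rows and from 428 to 790 with 1 array left out (790 without Cbl-b-/- replicate 2). With the replicate block the count was 453, and the median of the pigment genes was −0.45 by construction. Same-numbered arrays deviated together with correlations of 0.23, 0.092 and 0.25, which does not establish a pairing. Low signal limits Tyr and Oca2, which were not shown above background outside WT replicate 3, and Gpr143, which was not shown above it on any array. It also limits Slc45a2, which exceeded the olfactory gauge only in WT replicate 3 and Cbl-b-/- replicate 2.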
